A study of Homo sapiens with 8 samples.

Results

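The comparison described here set the mean of 3 depletions in 293T cells against a control hairpin, and asked which genes changed alike when 3 different nuclear proteins were depleted. 293T is a line of transformed human kidney cells of embryonic origin, which express SV40's large T antigen. Cells expressed a hairpin against the linker histone H1.2 (H1.2sh), against the cullin Cul4A (Cul4Ash), against PAF1 (PAF1sh), or the control hairpin NCsh, and nothing else in the labels separates the groups. Each group had 2 Illumina bead arrays of total RNA. All 8 arrays of the series were used. The 3 depletion groups were weighted equally, so that the pooled change of a gene is the mean of 3 group means (6 arrays) minus the mean of the NCsh arrays (2 arrays).

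Linker histones bind nucleosomes at the points where DNA enters and leaves, and H1.2 is one of several somatic subtypes. Cul4A is the scaffold of ubiquitin ligases that hold their substrate receptors through the adaptor DDB1. PAF1 belongs to a complex that travels with RNA polymerase II during elongation and is needed for ubiquitylation of histone H2B.

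Each level below is a log2 intensity after quantile normalization, each change is a difference of such levels, and n = 2 arrays per group throughout. The ± value is limma's standard error. Genes are said to rise, fall or differ where limma's test gave an adjusted p (Benjamini-Hochberg over 12300 genes) under 0.05. The 3 depletions share the 2 NCsh arrays, so a change common to the depletions and a difference of the NCsh cells cannot be told apart. Whether the arrays of a group stand for separate cultures is not in the labels, and p-values therefore measure the spread between arrays, possibly technical, and no more. One hairpin is named per target, and no rescue. In a bulk sample, fewer cells of a kind and less RNA per cell cannot be told apart either.

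Array medians lay between 82.8 and 88.7 on the linear scale, and 39.2% to 42.5% of probes were detected on an array. Arrays of a group correlated at 0.996, arrays of different depletion groups at 0.973 to 0.986, and NCsh with depletion arrays at 0.974 to 0.989 (Pearson, across genes, which are not independent replicates). Of 9 markers fixed for the line, 8 were detected on all 7 arrays with detection p-values, and PAX2, a kidney transcription factor, on none. Of the markers of other cells, PTPRC and CD3E (blood), PECAM1, VWF and CDH5 (endothelium), KRT5 and KRT14 (keratinocytes), COL1A2 (fibroblasts) and S100A2 (carcinoma) were detected on none. Detected on all 7 were the fibroblast collagen COL1A1 (mean level 6.74 in NCsh and 6.89 in the depletions), the monocyte marker CD14 (7.05 and 7.10), the hepatocyte marker ALB (7.22 and 7.39) and CDKN2A (10.1 and 10.3). COL3A1, DCN and TTR were detected on 3 arrays each, HBB on 2 and LUM on 1. Their part in the results was not tested. For 2 depletion arrays the names in the scanner table and in the labels disagree. Both are depletion arrays under either name, so the division into NCsh and depletions does not depend on it. The single-group values below do, and they follow the labels. On these arrays, labelled Cul4Ash 2 and PAF1sh 2, the low target was that of the label: CUL4A at 6.88 and PAF1 at 8.03. H1-2 stood at 9.21 on the array that the scanner names H1.2sh 2, and CUL4A at 8.63 on the one it names Cul4Ash 2.

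At its brightest probe, each hairpin's target was low only on the arrays labelled for it, so the targets are no part of what the depletions shared. H1-2, the gene of H1.2, stood at 9.24 and 9.07 on the NCsh arrays, 8.05 and 8.05 on the H1.2sh arrays, 9.34 and 9.21 on the Cul4Ash arrays and 9.22 and 9.11 on the PAF1sh arrays. CUL4A stood at 8.46 and 8.33 in NCsh, 8.38 and 8.44 in H1.2sh, 6.91 and 6.88 in Cul4Ash, and 8.48 and 8.63 in PAF1sh. PAF1 stood at 10.61 and 10.50 in NCsh, 10.77 and 10.68 in H1.2sh, 10.56 and 10.55 in Cul4Ash, and 7.92 and 8.03 in PAF1sh. In each case the labelled pair lay below the other 6 arrays with no overlap. The pooled changes of the targets, -0.33 ± 0.07 for H1-2, -0.45 ± 0.07 for CUL4A and -0.80 ± 0.07 for PAF1, therefore each came from a single group. Without that group they were 0.06, 0.08 and 0.08.

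Over all genes, 2890 of 12300 (23.5%) changed in the pooled comparison, 1380 rising (11.2%) and 1510 falling (12.3%). Most changes were small, with a median size of 0.32 (1.25-fold) among the genes called, against a median standard error of 0.07. At least 2-fold, 5 genes rose and 22 fell; at least 1.5-fold, 94 rose and 167 fell. The largest increase was that of the GTPase gene RHOC (1.34) and the largest decrease that of the adenylate kinase gene AK4 (-1.79). Scaling arrays by their medians moved the median of all genes by -0.05 and left 497 genes rising and 1692 falling, so that the share of calls that rose went from 47.8% to 22.7% (24.8% without normalization). Without the first NCsh array 1272 genes were called, and without the second 1598.

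The depletions also differed widely from each other. A moderated F test among the depletions, in which NCsh enters only the shared error, called 6354 genes (51.7%). Of the 2890 genes of the pooled comparison, 2123 (73.5%) were among them, and 767 were not (398 rising, 369 falling). In 1897 called genes (65.6%) the range between the 3 group means was wider than the pooled change itself. PAF1sh was the group farthest from NCsh in 1730 of the called genes (59.9%), Cul4Ash in 663 (22.9%) and H1.2sh in 497 (17.2%). All 6 depletion arrays lay on the same side of both NCsh arrays in 1640 called genes, 825 above and 815 below, or 13.3% of the genes tested. The plot of change against range shows that large pooled changes occur at both small and large ranges.

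**Figure D1:**
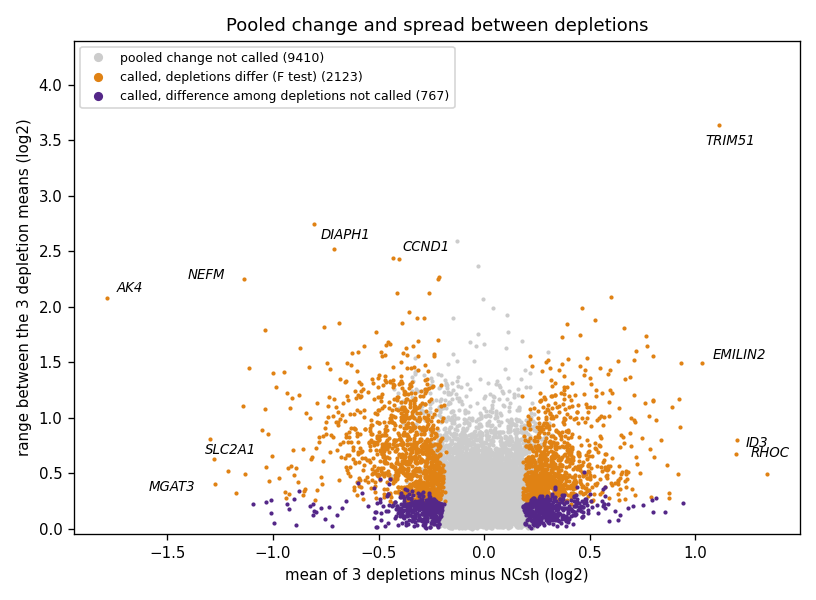
Pooled change (mean of the 3 depletions minus NCsh, log2; horizontal) against the range between the 3 depletion means (log2; vertical), 1 point per gene. Purple marks the 767 called genes in which the difference among depletions was not called, orange the 2123 in which it was, and grey the 9410 genes not called; TRIM51, at a range of 3.64, moved in 1 depletion, while MGAT3 and RHOC lie low and far from 0.

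Because depletions differ, the test depends on which spread serves as error. With the spread between the 3 depletions counted as error (2 groups, 6 arrays against 2), limma called 55 genes (18 rising, 37 falling; 0.447%) and 1339 at an unadjusted p under 0.05. With the 4 groups as a random block, at a consensus correlation of 0.73, it called 0 genes, the lowest adjusted p was 0.124, and 404 genes had an unadjusted p under 0.05. There are 4 groups and hence 4 ways to choose the control, so an exact permutation over groups cannot go below p = 0.25. The counts above therefore hold for these hairpins and arrays only.

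Among genes that rose in all 3 depletions, RHOC had the largest pooled change, followed by PCDH7 and ID3. The genes described are the 12 risers with the largest change in the group that moved least, and likewise the 12 that fell, chosen among called genes whose 6 depletion arrays all lay beyond both NCsh arrays. That choice fixes their direction and separation, so neither is a test. RHOC, a small GTPase of the actin cytoskeleton, had levels of 9.61 and 9.60 in NCsh, 11.01 and 10.90 in H1.2sh, 10.63 and 10.75 in Cul4Ash, and 11.22 and 11.15 in PAF1sh. The NCsh arrays were lowest and nearly equal, and PAF1sh was highest. The pooled change was 1.34 ± 0.07 (2.53-fold, adjusted p = 5.85e-06), and a second RHOC probe gave 1.23. ID3, an inhibitor of basic helix-loop-helix transcription factors, stood at 9.04 and 9.08 in NCsh, 10.58 and 10.58 in H1.2sh, 10.32 and 10.24 in Cul4Ash, and 9.87 and 9.93 in PAF1sh. The NCsh arrays were again lowest, but PAF1sh, the highest group for RHOC, was the lowest of the depletions here, and H1.2sh the highest (1.19 ± 0.06, adjusted p = 6.10e-06; F test among depletions, adjusted p = 0.000142). KEAP1, the substrate adaptor of the cullin-3 ligase that holds the transcription factor NRF2 at low level, stood at 8.37 and 8.44 in NCsh, 9.06 and 9.12 in H1.2sh, 9.09 and 9.15 in Cul4Ash, and 9.39 and 9.35 in PAF1sh. Its arrays separated into NCsh below, H1.2sh and Cul4Ash together, and PAF1sh above (0.79 ± 0.06; second probe 0.65).

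PCDH7, a protocadherin, rose 2.29-fold, with the largest group change in PAF1sh (1.70, against 0.99 in H1.2sh and 0.90 in Cul4Ash). GMPPB, which makes GDP-mannose for glycosylation, rose by 0.94 ± 0.09, and the 3 groups (0.84, 0.92 and 1.07) were not called different (F test, adjusted p = 0.244). VGLL4, a cofactor that binds TEAD transcription factors and opposes their activation, rose by 0.85 ± 0.08, with group changes of 0.94, 0.84 and 0.79. NUP160, a scaffold nucleoporin of the nuclear pore, rose by 0.88 ± 0.07, and PDHB, a subunit of pyruvate dehydrogenase, by 0.82 ± 0.07. The other genes of the 12 were SSR1, a subunit of the translocon-associated protein complex (0.75), the N-terminal acetyltransferase NAA60 (0.79), the serine protease PRSS23 (0.80) and NDRG4 (0.92). A second probe gave 0.65 for GMPPB. Second probes of PCDH7 (0.56) and NDRG4 (0.23) were not detected on any NCsh array. The F test called 6 of the 12.

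Among genes that fell in all 3 depletions by the same choice, CA2, CXCL16, MGAT3 and SLC2A1 had the largest pooled changes. MGAT3, which adds the bisecting sugar of N-glycans, stood at 8.34 and 8.35 in NCsh, 7.27 and 7.32 in H1.2sh, 7.16 and 6.91 in Cul4Ash, and 6.88 and 6.90 in PAF1sh. All 6 depletion arrays lay below NCsh, PAF1sh lowest (-1.27 ± 0.07, 2.42-fold, adjusted p = 1.10e-05). SLC2A1, the glucose transporter of most dividing cells, stood at 10.54 and 10.58 in NCsh, 9.39 and 9.46 in H1.2sh, 9.60 and 9.55 in Cul4Ash, and 9.11 and 8.99 in PAF1sh. The groups did not overlap, with PAF1sh lowest (-1.21 ± 0.06, 2.32-fold). CA2, a cytosolic carbonic anhydrase, stood at 12.46 and 12.54 in NCsh, 11.47 and 11.51 in H1.2sh, 11.37 and 11.51 in Cul4Ash, and 10.84 and 10.52 in PAF1sh. H1.2sh and Cul4Ash overlapped, and PAF1sh lay lower still (-1.30 ± 0.09; second probe -1.26). CXCL16, a membrane-bound chemokine, stood at 8.70 and 8.68 in NCsh, 7.81 and 7.82 in H1.2sh, 7.32 and 7.18 in Cul4Ash, and 7.18 and 7.18 in PAF1sh, so that its fall was smallest in H1.2sh (-1.28 ± 0.06).

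RXYLT1, a glycosyltransferase of the sugar chain on alpha-dystroglycan, gave the most equal group changes of the 24 genes. Its levels were 10.36 and 10.35 in NCsh, 9.53 and 9.44 in H1.2sh, 9.41 and 9.49 in Cul4Ash, and 9.61 and 9.30 in PAF1sh. The depletions were interleaved and all lay below NCsh (-0.89 ± 0.08), with group changes of -0.87, -0.90 and -0.90 and a range of 0.03 (F test, adjusted p = 0.955). PPP2R2C, a regulatory subunit of protein phosphatase 2A, had a range of 0.06 around -0.99 ± 0.08, but was detected on only 3 of the 5 depletion arrays that have detection p-values. WASF3, a nucleation-promoting protein for actin, fell by 1.03 on the log2 scale, the pseudokinase gene CAMKV by 1.01, the Arf GTPase-activating protein gene ADAP1 by 1.18 and PFKFB4, a regulator of glycolysis, by 1.13. IGDCC3 (-1.10 ± 0.14) and the calcium channel subunit gene CACNA2D2 (-1.01 ± 0.15) had the widest errors of the 12. For IGDCC3 the NCsh arrays themselves stood apart, at 8.35 and 7.71. A second IGDCC3 probe changed by -0.27 ± 0.07 and was detected on 1 of 5 depletion arrays. Second probes of ADAP1 (-0.35) and PPP2R2C (-0.45) were detected on no depletion array.

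Across the 24 genes the highest adjusted p was 0.00138. With the spread between depletions as error, 20 of the 24 were called, and the exceptions were PCDH7, NDRG4, CA2 and CACNA2D2 (adjusted p up to 0.0979). With groups as a random block 0 of the 24 were called, at a lowest adjusted p of 0.124. Because the 24 were chosen for a large change in every group, their calls under another error term are no independent support. The plot of levels by array shows the gap between NCsh and the depletions for each of them.

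**Figure D2:**
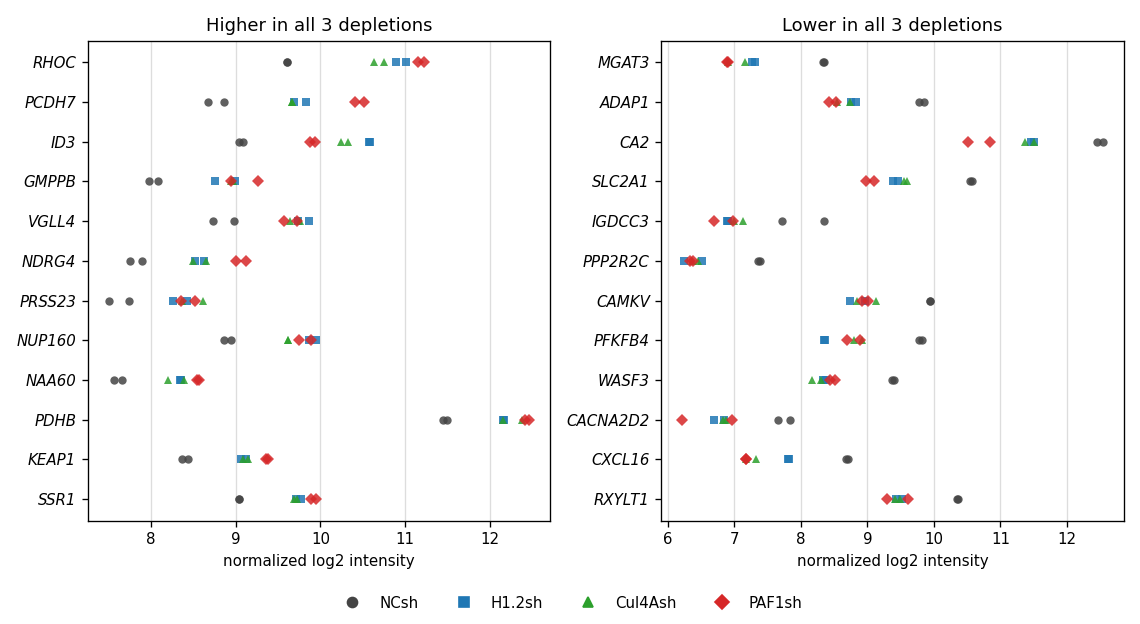
Normalized log2 intensity (horizontal) of the 12 genes higher and the 12 lower in all 3 depletions, 1 point per array: NCsh circles, H1.2sh squares, Cul4Ash triangles, PAF1sh diamonds. In every gene the 2 NCsh arrays lie apart from the 6 depletion arrays, as the choice of genes requires; PAF1sh is the extreme group for RHOC, PCDH7 and CA2, and H1.2sh for ID3.

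Some pooled changes took their direction from a single depletion. TRIM51, of a family of near-identical copies among which a probe may not distinguish, stood at 6.57 and 6.56 in NCsh, 6.71 and 6.39 in H1.2sh, 6.38 and 6.47 in Cul4Ash, and 10.11 and 10.02 in PAF1sh. Only PAF1sh lay above the rest, and the pooled change of 1.11 ± 0.09 became -0.08 without that group. DIAPH1, a formin that assembles actin filaments, stood at 7.31 and 7.48 in Cul4Ash and between 9.71 and 9.96 on the other arrays. CCND1, cyclin D1 of the step into S phase, stood at 6.98 and 7.09 in PAF1sh, 9.019 and 9.004 in NCsh, 9.50 and 9.45 in H1.2sh, and 9.24 and 9.21 in Cul4Ash. Its pooled change was -0.43 ± 0.06, whereas H1.2sh and Cul4Ash lay above NCsh and, without PAF1sh, the pooled change was 0.34. The pooled changes of the protease gene ADAMTS1 and of CTXN1 also turned without PAF1sh, from -0.40 to 0.30 and from -0.22 to 0.35. ADAMTS1 changed by 0.62 in H1.2sh and -0.02 in Cul4Ash. CTXN1 changed by -0.19 in H1.2sh and 0.91 in Cul4Ash, against -1.36 in PAF1sh.

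The heat shock list was low in the depletions, led by the inducible Hsp70 genes. Its chaperones and cochaperones fold new and damaged proteins, and many are transcribed through heat shock factors that bind repeats of nGAAn in their promoters. Of 21 measured, 13 fell and 1 rose, against 12.3% and 11.2% of all genes. The promoters of HSPA6 and CHORDC1 are shown because both genes fell and both carry the array searched for, in capitals: 3 units of GAA, TTC and GAA with 2 free bases between units, on either strand. They are RefSeq sequence of GRCh38.p14, 250 bases up to the transcription start, at chr1:161524290-161524539 on the + strand for HSPA6 and chr11:90223050-90223299 on the - strand for CHORDC1, where 3 matches overlap.
HSPA6: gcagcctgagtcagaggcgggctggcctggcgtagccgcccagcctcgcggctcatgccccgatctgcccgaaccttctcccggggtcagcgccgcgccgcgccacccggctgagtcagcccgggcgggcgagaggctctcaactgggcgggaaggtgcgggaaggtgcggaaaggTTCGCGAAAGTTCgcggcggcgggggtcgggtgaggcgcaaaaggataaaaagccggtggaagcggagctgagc
CHORDC1: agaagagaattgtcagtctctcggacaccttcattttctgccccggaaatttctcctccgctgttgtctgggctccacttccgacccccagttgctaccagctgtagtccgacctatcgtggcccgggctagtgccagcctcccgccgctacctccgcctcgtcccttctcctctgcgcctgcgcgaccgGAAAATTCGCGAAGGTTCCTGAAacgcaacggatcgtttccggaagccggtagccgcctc
Over windows from 250 bases before to 50 after the start, the array occurred in 0.49% of 35116 promoters, in 8 of the 19 heat shock genes with a promoter in the table, and in 4 of the 12 that fell and have one (HSPA6, HSP90AA1, DNAJB6 and CHORDC1). These matches describe the letters and not binding.

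HSPA6, an inducible Hsp70 chaperone, stood at 7.59 and 7.80 in NCsh, 7.03 and 6.94 in H1.2sh, 6.43 and 6.63 in Cul4Ash, and 6.62 and 6.72 in PAF1sh. HSPA1B, the main inducible Hsp70 gene together with its near-identical copy HSPA1A, stood at 13.80 and 13.83 in NCsh, 13.04 and 12.94 in H1.2sh, 12.71 and 12.72 in Cul4Ash, and 12.92 and 12.94 in PAF1sh. In both genes every depletion array was below NCsh, and the mean was lowest in Cul4Ash (pooled -0.97 ± 0.08 and -0.94 ± 0.06, adjusted p = 4.88e-05 and 1.25e-05). HSPA1A gave -0.91 ± 0.10 but was detected on 1 of 5 depletion arrays, and how the signal divides between the 2 copies is uncertain. CHORDC1, a cochaperone of Hsp90, stood at 9.49 and 9.40 in NCsh, 9.31 and 9.33 in H1.2sh, 9.03 and 9.24 in Cul4Ash, and 8.98 and 8.82 in PAF1sh, a change of -0.33 ± 0.08. The Hsp110 gene HSPH1 fell by 0.52 on the log2 scale, and BAG3, a cochaperone of Hsp70, by 0.46, most of all in Cul4Ash. HSPA4, another Hsp110 gene, fell by 0.66, but 1 of its H1.2sh arrays (8.66) lay above an NCsh array (8.62). The small heat shock protein gene HSPB1 was the one that rose, at 11.36 and 11.46 in Cul4Ash and 11.24 and 11.48 in PAF1sh against 10.87 and 10.88 in NCsh, with 10.81 on both H1.2sh arrays. The constitutive chaperone HSPA8 did not pass (0.01 ± 0.07), nor did the mitochondrial HSPD1 at its brightest probe (-0.16 ± 0.07), of which 2 other probes gave -0.40 and -0.31. The list's median was -0.27, against -0.00 over all genes, and its median was -0.28 in PAF1sh, -0.25 in Cul4Ash and -0.13 in H1.2sh. Members that fell numbered 7 without PAF1sh and 8 without the first NCsh array, and 2 (HSPA6 and HSPA1B) with the spread between depletions as error.

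Genes of glycolysis and hypoxia that fell included the glucose transporter SLC2A1 and both regulators PFKFB3 and PFKFB4, while the abundant enzymes ENO1 and LDHA did not pass. Of 33 measured, 15 fell and 2 rose, against 12.3% and 11.2% of all genes, with a median of -0.15. Hypoxia-inducible factors bind a core of ACGTG, and the promoter of BNIP3, a mitophagy receptor induced by them, is shown because its centre holds that core on both strands (CACGTG, capitals). The sequence is RefSeq GRCh38.p14, the 250 bases before the start, chr10:131981924-131982173, - strand.
BNIP3: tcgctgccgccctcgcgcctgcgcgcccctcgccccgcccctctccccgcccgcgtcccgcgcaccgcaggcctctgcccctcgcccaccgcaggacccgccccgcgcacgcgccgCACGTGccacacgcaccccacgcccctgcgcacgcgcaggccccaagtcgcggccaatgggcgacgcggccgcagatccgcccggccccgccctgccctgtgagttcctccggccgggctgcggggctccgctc
The core is short and common: it was present in 21.4% of all promoters, in 32.4% of those of genes tested, in 19 of the 29 list members with a promoter and in 11 of the 14 that fell and have one.

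AK4, a mitochondrial adenylate kinase, had the largest decrease, with levels of 11.135 and 11.001 in NCsh, 10.45 and 10.40 in H1.2sh, 9.05 and 9.09 in Cul4Ash, and 8.36 and 8.34 in PAF1sh. The order NCsh, H1.2sh, Cul4Ash, PAF1sh held without overlap (-1.79 ± 0.06, 3.45-fold, adjusted p = 6.31e-07), whereas 3 further AK4 probes changed by only -0.57, -0.52 and -0.58. PFKFB4, which sets the level of an activator of phosphofructokinase, stood at 9.82 and 9.78 in NCsh, 8.35 and 8.37 in H1.2sh, 8.92 and 8.79 in Cul4Ash, and 8.70 and 8.89 in PAF1sh. It was lowest in H1.2sh, and its relative PFKFB3 (-0.75 ± 0.06) was lowest in PAF1sh. ADM, the vasodilator peptide adrenomedullin, stood at 10.45 and 10.51 in NCsh, 9.79 and 9.74 in H1.2sh, 9.83 and 9.70 in Cul4Ash, and 9.71 and 9.78 in PAF1sh. Its 3 group changes lay within 0.02 of each other around -0.72 ± 0.07 (F test, adjusted p = 0.956). BNIP3 stood at 11.83 and 11.93 in NCsh, 10.68 and 10.73 in H1.2sh, 11.56 and 11.76 in Cul4Ash, and 11.16 and 11.17 in PAF1sh, all below NCsh but close to it in Cul4Ash (-0.70 ± 0.07). P4HA1, a collagen prolyl hydroxylase (-0.62), NDRG1 (-0.69), the enolase gene ENO2 (-0.51) and the oxygen sensor gene EGLN1 (-0.45) likewise had all 6 depletion arrays below NCsh. Hexokinase HK2 (-0.47) fell in the pooled test but overlapped NCsh in Cul4Ash. Among the abundant enzymes, ENO1 (-0.08 ± 0.06) and LDHA (-0.01 ± 0.07) did not pass. The phosphofructokinase gene PFKM rose by 0.41 ± 0.06, with depletion arrays between 10.10 and 10.26 and NCsh at 9.77 and 9.76. Medians of the list were -0.24 in H1.2sh, -0.22 in PAF1sh and -0.04 in Cul4Ash. With the spread between depletions as error, SLC2A1, PFKFB4 and ADM were called.

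**Figure D3:**
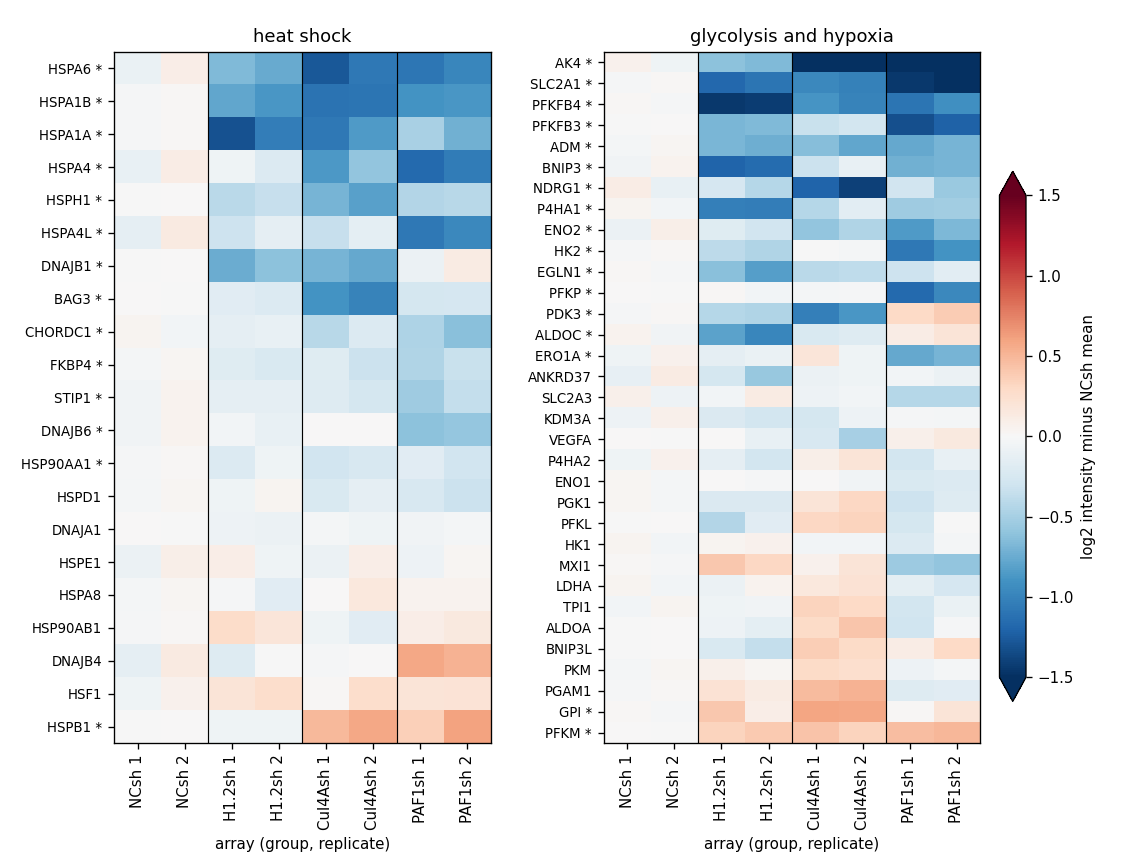
Log2 intensity of each array minus the NCsh mean (colour, from -1.5 in blue to 1.5 in red) for the 21 heat shock genes (left) and the 33 genes of glycolysis and hypoxia (right), 1 column per array; a star marks genes called in the pooled comparison. Most of the upper rows are blue in all 3 depletions, with AK4 deepest in PAF1sh. Of the lowest rows, PFKM is red in all 3 depletions and HSPB1 in Cul4Ash and PAF1sh only.

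Lipid synthesis genes fell in part. The sterol regulator INSIG1, which retains the sterol-sensing complex in the endoplasmic reticulum, stood at 10.93 and 10.88 in NCsh, 10.01 and 10.12 in H1.2sh, 9.77 and 9.79 in Cul4Ash, and 10.44 and 10.37 in PAF1sh. The groups did not overlap, and Cul4Ash was lowest (-0.82 ± 0.06; second probe -0.39). The cholesterol enzymes HMGCS1 (-0.59 ± 0.07) and DHCR7 (-0.49 ± 0.07) fell on all 6 arrays as well, and the cyclase LSS rose by 0.27. In all, 4 of 19 cholesterol genes fell and 1 rose, which is 26.3% called and close to the 23.5% of all genes. Of 11 fatty acid genes 4 fell and 0 rose, against 12.3% and 11.2% of all genes (36.4% called). The desaturase SCD fell (-0.91 ± 0.07), at 12.15 and 12.25 in NCsh, 11.54 and 11.47 in H1.2sh, 11.73 and 11.83 in Cul4Ash, and 10.65 and 10.54 in PAF1sh. ELOVL6 and ACSS2 fell by 0.36 and 0.29 with nearly equal group changes, and the synthase FASN did not pass (0.03 ± 0.06).

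Targets of TGF-beta and bone morphogenetic proteins rose more often than they fell. These ligands signal through SMAD proteins, which induce ID genes as well as their own inhibitors. Of 21 measured, 9 rose and 2 fell, against 11.2% and 12.3% of all genes, and 8 had all depletion arrays above NCsh, against 8.80% (median 0.18; 0.25 in H1.2sh, 0.20 in PAF1sh and 0.15 in Cul4Ash). Beside ID3, SNAI2, a transcriptional repressor of epithelial genes, stood at 8.40 and 8.41 in NCsh, 8.99 and 9.04 in H1.2sh, 9.098 and 8.998 in Cul4Ash, and 9.97 and 9.90 in PAF1sh (0.93 ± 0.06; second probe 0.64). BAMBI, a pseudoreceptor that blocks the pathway, rose by 0.71 ± 0.08, and the inhibitory SMAD6 and SMAD7 by 0.31 and 0.28, each with overlap between depletion and NCsh arrays. ID1 rose by 0.49 ± 0.08. ID2 went the other way, with levels of 10.93 and 10.76 in NCsh, 10.30 and 10.26 in H1.2sh, 10.06 and 10.14 in Cul4Ash, and 10.12 and 10.18 in PAF1sh. All 6 lay below NCsh (-0.67 ± 0.07; second probe -0.90), so that the ID genes did not move as a family. TGFBI, not above background on the NCsh arrays, was at least 1.39-fold higher. Members that rose numbered 5 with median scaling and 5 without normalization, and 4 without the first NCsh array. With the spread between depletions as error, ID3 rose, ID2 fell and no other member was called.

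Calls among cell cycle genes were mostly small increases, and many depended on the scaling. In the S phase list 10 of 50 rose and 4 fell (28.0% called, against 23.5% of all genes). MCM5, a subunit of the replicative helicase, stood at 9.75 and 9.91 in NCsh, 10.53 and 10.38 in H1.2sh, 10.49 and 10.38 in Cul4Ash, and 10.33 and 10.44 in PAF1sh, an even rise of 0.59 ± 0.08 (F test among depletions, adjusted p = 0.774). Thymidine kinase TK1 rose by 0.56 ± 0.06 and the helicase subunit MCM2 by 0.37 ± 0.08, both on all 6 arrays. The 4 that fell, CDC25A, POLA2, CCNE1 and TYMS, were lowest in PAF1sh. With the spread between depletions as error, MCM5 alone was called in this list. With median scaling 2 rose and 3 fell, without normalization 2 rose and 2 fell, and without the first or the second NCsh array 3 or 4 rose and 0 fell.

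Of 53 G2 and mitosis genes, 18 rose and 3 fell, against 11.2% and 12.3% of all genes. The promoter of MKI67, which encodes the proliferation antigen Ki-67, is shown because it carries 2 copies of TTTGAA, the cell cycle homology element at which such genes are periodically repressed, in capitals (RefSeq GRCh38.p14, 250 bases before the start, chr10:128126424-128126673, - strand).
MKI67: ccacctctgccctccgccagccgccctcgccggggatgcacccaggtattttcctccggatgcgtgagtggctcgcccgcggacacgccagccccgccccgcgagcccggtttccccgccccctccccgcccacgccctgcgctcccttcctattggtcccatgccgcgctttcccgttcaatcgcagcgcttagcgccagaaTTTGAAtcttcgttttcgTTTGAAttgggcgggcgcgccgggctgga
TTTGAA on either strand was present in 15.2% of all promoters, in 33 of the 45 list members with a promoter and in 8 of the 15 that rose and have one. MKI67 stood at 7.12 and 7.10 in NCsh, 7.53 and 7.20 in H1.2sh, 7.52 and 7.43 in Cul4Ash, and 7.67 and 7.83 in PAF1sh, all above NCsh though barely so on 1 H1.2sh array (0.42 ± 0.09). CDC25C, the phosphatase that triggers mitosis, stood at 8.03 and 8.23 in NCsh, 8.57 and 8.71 in H1.2sh, 8.85 and 8.80 in Cul4Ash, and 9.41 and 9.48 in PAF1sh. The 4 groups did not overlap (0.84 ± 0.07), and its 2 other probes gave 0.62 and 0.65. CENPF, a kinetochore protein, rose by 0.80 ± 0.07 through Cul4Ash (1.04) and PAF1sh (1.26), with 0.10 in H1.2sh. The list median was 0.26 in PAF1sh, 0.10 in Cul4Ash and -0.06 in H1.2sh. With the spread between depletions as error, 0 members rose and 0 fell. Without PAF1sh 5 rose and 4 fell, with median scaling 6 rose and 5 fell, without normalization 5 rose and 3 fell, and without the first NCsh array 5 rose and 0 fell.

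Of 27 core histone genes measured, 12 rose and 1 fell in the pooled test, against 11.2% and 12.3% of all genes. The F test called 15 of the 27 different among depletions, against 51.7% of all genes. Of the 13 genes of the pooled test it called 12. H2AC20 stood at 7.93 and 7.97 in NCsh, 7.63 and 7.65 in H1.2sh, 9.21 and 9.10 in Cul4Ash, and 8.91 and 9.03 in PAF1sh. H1.2sh lay below NCsh and the other depletions above it, so the pooled change of 0.64 ± 0.06 describes none of the groups. H2AC19 and H2AC18, which encode the same protein from near-identical copies and cannot be separated with certainty, gave 0.76 and 0.60 with the same order. For H2BC5 the groups went opposite ways: 0.95 in PAF1sh, 0.38 in Cul4Ash and -1.42 in H1.2sh left a pooled change of -0.03 ± 0.07 at the brightest probe. A second H2BC5 probe gave 0.32 ± 0.07. The list median was 0.34 in PAF1sh, 0.31 in Cul4Ash and 0.01 in H1.2sh. All 6 depletion arrays lay above NCsh in 3 members, against 8.80% of all genes. With the spread between depletions as error, 0 members rose and 0 fell. Most histone transcripts lack a poly(A) tail, and how fully the labelling read them is not known. Members that rose numbered 7 without the first NCsh array.

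Neuronal genes, many of which 293T cells express, fell more often than they rose. Of 21 measured, 9 fell and 2 rose, against 12.3% and 11.2% of all genes. All depletion arrays lay below NCsh in 7, against 8.44% of all genes. The list median was -0.18, with -0.25 in Cul4Ash, -0.16 in H1.2sh and -0.15 in PAF1sh. SYP, the synaptic vesicle protein synaptophysin, stood at 7.88 and 7.98 in NCsh, 6.91 and 6.71 in H1.2sh, 6.59 and 6.72 in Cul4Ash, and 7.23 and 7.38 in PAF1sh. All 6 lay below NCsh, PAF1sh least (-1.01 ± 0.08). The stathmin relative STMN3 (-0.94 ± 0.07), the collapsin response mediator CRMP1 (-0.81 ± 0.06) and the intermediate filament gene INA (-0.78 ± 0.07) were also below NCsh on all 6 arrays. The neurofilament gene NEFM, a marker of the line, fell by 1.14 on the log2 scale through Cul4Ash (-1.43) and PAF1sh (-2.12), with 0.13 in H1.2sh. BASP1, a protein of growth cones, rose by 0.71 ± 0.08. With the spread between depletions as error, with groups as a random block or with neqc, limma called 0 neuronal genes.

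Stress and growth regulators showed mixed directions. Of 33 genes of the ATF4 response, which adjusts amino acid supply under stress, 12 fell and 5 rose, against 12.3% and 11.2% of all genes. All 17 differed among the depletions, as did 73.5% of all genes called. STC2 (-0.73 ± 0.06), a secreted stress protein, fell on all arrays, DDIT4 (-0.61) fell in Cul4Ash and PAF1sh, and DDIT3 (0.71 ± 0.08) rose, mostly in H1.2sh and PAF1sh. Of 24 p53 target genes 7 rose and 4 fell (45.8% called, against 23.5% of all genes). CDKN1A, the cell cycle inhibitor p21, stood at 10.76 and 10.70 in NCsh, 10.28 and 10.25 in H1.2sh, 11.44 and 11.27 in Cul4Ash, and 12.10 and 12.19 in PAF1sh, which is a fall and 2 rises behind a pooled 0.52 ± 0.07. Large T antigen binds p53 in these cells. Among 25 immediate early genes 7 rose and 2 fell (36% called, against 23.5% of all genes). JUN, a component of AP-1, rose by 0.68 ± 0.06 and lay above NCsh on all 6 arrays, while DUSP1 (0.72) and ATF3 (0.54) rose chiefly in PAF1sh.

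The hairpins themselves engage the RNA interference machinery, and double-stranded RNA can evoke an interferon response. Of 19 RNA interference genes 2 rose and 2 fell (21.1% called, against 23.5% of all genes). DICER1, which processes hairpins, stood at 8.64 and 8.57 in NCsh, 9.15 and 9.09 in H1.2sh, 9.03 and 8.99 in Cul4Ash, and 9.04 and 9.09 in PAF1sh. The rise was even over the depletions (0.46 ± 0.06; second probe 0.32; F test, adjusted p = 0.465). PRKRA, a partner of DICER1, fell by 0.59 on the log2 scale, mostly in PAF1sh (-1.25). Of 28 genes of the interferon and double-stranded RNA response, 7 rose and 6 fell (median -0.03), and without the first NCsh array 2 rose and 2 fell. Of this interferon list 46.4% were called, and with the spread between depletions as error 0 rose and 0 fell. The peptide transporter TAP1 (-0.77 ± 0.06) and HLA-B (-0.42 ± 0.09) fell on all 6 arrays, and IFI35 rose by 0.58 ± 0.07. The RNA-activated kinase gene EIF2AK2 did not pass (-0.15 ± 0.12). KEAP1 rose, as given above, while NRF2 targets were split, with 3 rising and 3 falling of 13 (46.2% called). HMOX1, heme oxygenase, rose through H1.2sh alone (1.48, against -0.37 in Cul4Ash and 0.06 in PAF1sh).

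Apart from the targets themselves, genes of the targets' own complexes had small pooled changes. In the PAF1 complex SKIC8 rose by 0.36 ± 0.06, while LEO1 (0.01 ± 0.08) and CTR9 (0.14 ± 0.08) did not pass. Of 30 genes of CUL4 ligases and the signalosome that regulates them, 7 were called (23.3%, as many as among all genes), with COPS6 at 0.33 and COPS7A at -0.36. DET1 fell by 0.27 on the log2 scale through H1.2sh (-0.78). Among depletions the F test called 18 of these 30 different, and 3 of 5 in the PAF1 complex, against 51.7% of all genes. DDB1 did not pass (0.18 ± 0.06). Of the linker histones, H1-10 rose by 0.30 ± 0.06 through PAF1sh (0.87).

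Of 67 ribosomal protein genes 2 rose and 3 fell (7.46% called, against 23.5% of all genes), and their median range between depletions was 0.11 against 0.30 for all genes. Of 71 oxidative phosphorylation genes 13 rose and 1 fell, against 11.2% and 12.3% of all genes, and 19.7% were called. COX8A, a subunit of cytochrome oxidase, rose by 0.35 ± 0.06 on all arrays. The list median was 0.08, and 0.18 in Cul4Ash. The mitochondrial ribosome (6 rising and 8 falling of 71), ribosome biogenesis (7 and 3 of 40), the proteasome (4 and 1 of 27) and apoptosis genes (2 and 3 of 21) had pooled medians between -0.03 and 0.00. Their shares called were, in that order, 19.7%, 25%, 18.5% and 23.8%, near the 23.5% of all genes. In PAF1sh the median was -0.17 for the mitochondrial ribosome and -0.14 for the proteasome. In the apoptosis list BMF, not above background on the NCsh arrays, was at least 1.47-fold higher. The plot of list medians shows which lists moved alike in the 3 depletions and which did not.

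**Figure D4:**
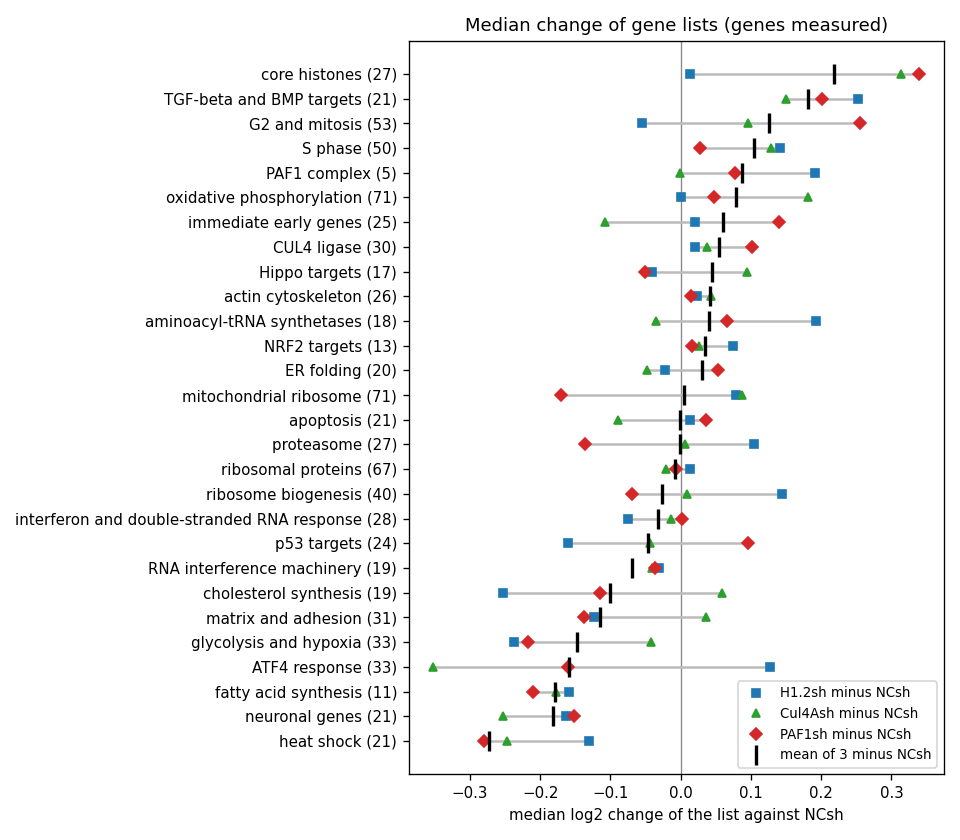
Median log2 change against NCsh (horizontal) of each gene list, with the number of genes measured: H1.2sh squares, Cul4Ash triangles, PAF1sh diamonds, and a bar for the pooled change. Among lists on 1 side of 0 in all 3 depletions, heat shock, fatty acid synthesis and neuronal genes lie below it and TGF-beta targets above. Glycolysis and hypoxia also lies below 0, least in Cul4Ash (-0.04). The ATF4 response, core histones and G2 genes spread across depletions, and the linker histones, with 3 genes, are left out.

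Genes of the actin cytoskeleton and of the matrix changed in both directions. Beside RHOC, the actin-binding protein gene CALD1 rose by 0.57 ± 0.08 at its brightest probe, with 0.38 and -0.07 at 2 others, and the actin gene ACTA2 fell by 0.69 through H1.2sh (-1.61) and PAF1sh (-0.70). The abundant ACTG1 and PFN1 did not pass (0.03 and 0.01). TIMP1, an inhibitor of matrix proteases, stood at 11.53 and 11.44 in NCsh, 12.35 and 12.32 in H1.2sh, 12.01 and 11.92 in Cul4Ash, and 12.19 and 12.16 in PAF1sh, and rose by 0.67 ± 0.06 with no overlap. EMILIN2, a matrix glycoprotein, rose by 1.03 ± 0.07, with H1.2sh at 1.58, Cul4Ash at 1.44 and PAF1sh at 0.08. Collagen COL18A1 fell by 0.71 on the log2 scale, chiefly in PAF1sh (-1.41). Of 26 actin genes 6 rose and 3 fell, and of 31 matrix and adhesion genes 6 rose and 8 fell. The shares called were 34.6% and 45.2%, against 23.5% of all genes.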

How the data were processed

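The authors deposited 2 tables of Illumina bead array values. The series matrix gives linear intensity values of 47220 probes on all 8 arrays, and the scanner table gives the signal on 7 of them. The scanner software's detection p-value for each probe was deposited beside the signal by the authors. Array preparation followed a TRIzol and biotinylated cRNA protocol, per the labels. The background adjustment of the deposited intensity values is not given in the sources used here, and background stays in them, so fold changes of dim probes are likely too small. In 2 scanner columns the name and the values disagree: the column called H1.2sh 2 holds the matrix array labelled Cul4Ash 2, and that called Cul4Ash 2 the one labelled PAF1sh 2. Groups were taken from the labels through the matrix.

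Intensities were log2 transformed and quantile normalized. Probes with a detection p-value under 0.05 on at least 2 of 7 arrays were kept (22131), of which 16305 had 1 gene in GEO's platform annotation, and the brightest probe stood for each of 12300 genes. Symbols were looked up in RefSeq (GRCh38.p14), which changed 0 of them. limma 3.58.1 (R 4.3.3) fitted 4 group means over 8 arrays with lmFit and eBayes (4 residual and 6.19 prior degrees of freedom), and Benjamini-Hochberg adjustment ran over all genes. The pooled contrast was the mean of 3 depletions minus NCsh, and a moderated F tested the difference among depletions. The steps were tested on simulated data.

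Genes named are the targets, 12 higher and 12 lower genes with the largest change in the group that moved least, the 6 of widest range, and in each list up to 4 called and 2 abundant uncalled members; other members and second probes were named after their values were seen. Members and lists were chosen with earlier results of these data known. Lists got no test of their own. Promoters of the cholesterol and ATF4 response lists were searched as well, over the same windows as the heat shock promoters (N, any base). TCACNCCAC occurred in 1 of 17 cholesterol genes with a promoter, 0 of the 4 that fell, and 1.13% of all promoters. TGATGNAA occurred in 8 of 28 ATF4 response genes, 1 of the 12 that fell, and 3.62% of all promoters. Alternatives were other scalings, filters and probe rules, neqc on the scanner signals, other error terms, a replicate block, and leaving out each array or group. The number of arrays limits the precision.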

Additional observations from a re-analysis of the deposited data

How the results depend on the processing

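The 24 shared genes kept their direction under each alternative run, and all of those tested were called except with neqc in a fit of depletion against NCsh arrays (7), the spread between depletions as error (20) and the random block (0). Counts of genes called, rising and falling, moved as follows. The pooled comparison gave 55, 18 and 37 with the spread between depletions as error, 0, 0 and 0 with groups as a random block (404 at an unadjusted p under 0.05), and 15, 3 and 12 with neqc on 7 scanner arrays, where the spread between depletions also entered the error, so that both choices changed at once. Without normalization 1860 genes were called, 462 of them rising, and with median scaling 497 rose. Without the detection filter, 1901 of 20038 genes were called, 895 rising and 1006 falling. Leaving out 1 array at a time gave 1272 to 2740 genes called, 541 to 1329 rising and 731 to 1411 falling, lowest without the first NCsh array and next lowest (1598, 744 and 854) without the second. The cause of these movements was not tested, beyond the fewer arrays or the larger error that the alternative itself sets. The F test among depletions called 4961 to 6628 genes under its alternatives.

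Some pooled changes reversed when a group was left out. Without H1.2sh, H1-2 was at 0.063, IFITM1 at 0.059 and HMOX1 at -0.15. Without Cul4Ash, CUL4A was at 0.084 and DIAPH1 at 0.10. Without PAF1sh, PAF1 was at 0.084, TRIM51 at -0.078, CCND1 at 0.34, ADAMTS1 at 0.30, CTXN1 at 0.35 and LIN28B at 0.11. Each of these genes had its largest change in the group left out. Some had also changed in another group, such as CTXN1 in Cul4Ash (0.91) and ADAMTS1 in H1.2sh (0.62). Over the alternatives, named genes kept direction and call in 3626 comparisons, lost the call in 510, gained it in 48 and reversed in 11.

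Replicate numbers did not pair the arrays: deviations of same-numbered arrays from their group means correlated at -0.133 to 0.111. With the replicate number as a block, 2683 genes were called (1265 rising, 1418 falling).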

Other observations

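Of the 55 genes called with the spread between depletions as error, which include 20 of the 24 shared genes, several others are named here after their values were seen. KLHL3, which like KEAP1 encodes a substrate adaptor of cullin-3 ligases, changed by -0.50, -0.52 and -0.50 in the groups H1.2sh, Cul4Ash and PAF1sh, the opposite direction to KEAP1. The kinase gene MAP3K7, which acts downstream of TGF-beta and inflammatory receptors, changed by -0.74, -0.78 and -0.89 in that order of groups, and the junction protein gene JAM3 by -0.96, -0.74 and -0.73. SIRPA, a receptor for CD47, changed by -0.96, -1.26 and -0.83. Among genes that rose, CCNC, the cyclin of the Mediator kinase module, had changes of 0.67, 0.51 and 0.68. The sulfate donor transporter gene SLC35B2 had 0.64, 0.81 and 0.55, and AMHR2, a receptor of the TGF-beta family, had 0.62, 0.67 and 0.82. These comparisons share the same 2 NCsh arrays, so equal group changes are also what a difference of those arrays alone would give, and these cannot be told apart.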
